A study of Rattus norvegicus with 22 samples.

Results

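The glutamate transporters and glutamate dehydrogenase were followed in neurons of the neonatal rat spinal cord. The set was taken by gene symbol from the annotation of the Affymetrix RN_U34 array and held every probe set named Slc1a1, Slc1a2, Slc1a3, Slc1a6 or Glud1. That gave 10 of the 1050 probe sets and 5 of the 643 named genes, with 3 probe sets for Slc1a3, 2 each for Slc1a6, Slc1a2 and Glud1, and 1 for Slc1a1. Probe sets of 1 gene were kept apart. A microarray signal depends on the probes as well as on the RNA, so each probe set is compared only with itself between groups.

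Descending commissural interneurons (dCINs, 7 arrays, labelled CIN) send their axon across the midline and down the cord and were filled with rhodamine dextran from a cut made below the sampled segment. Motor neurons (MNs, 7 arrays) were filled with the same tracer from the cut ventral roots. The control samples (MIX, 8 arrays) were taken at random from the ventral part of the same lumbar segment, so that they can hold dCINs, MNs and other cells. All came from untreated Wistar rats of postnatal day 0 to 4, with another animal behind each array, and the age of the single animals is not given in the sources used here. Between 50 and 100 cells were cut out by laser for each dCIN sample, 55 to 250 for each MN sample and 95 to 187 for each MIX sample, and their RNA went through 2 rounds of amplification. The signals are Li-Wong summaries on a linear scale, with array medians between 43.5 and 50.9. In samples of pooled cells, fewer cells of a type and less RNA per cell cannot be told apart.

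Glutamate, the main excitatory transmitter of the spinal cord, is cleared from the extracellular space by sodium-driven transporters of the Slc1 family, which use the gradient set up by the sodium-potassium pump. Slc1a3 (GLAST) and Slc1a2 (GLT-1) are known mainly from astrocytes, Slc1a1 (EAAC1) from the cell bodies and dendrites of neurons, and Slc1a6 (EAAT4) mostly from Purkinje cells of the cerebellum, where it also carries a chloride current. Glud1 encodes the mitochondrial glutamate dehydrogenase, which interconverts glutamate and 2-oxoglutarate and so ties the transmitter to the citric acid cycle.

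The upstream sequences of the 3 genes on which the results below turn are shown first. One Slc1a6 probe set carried the difference between the neuron types, and 1 of the 3 Slc1a3 probe sets varied with both of Glud1 from array to array. Each run holds the 250 bases before the RefSeq gene start in build GRCr8, read 5′ to 3′ on the strand of the gene, with the GC box GGGCGG (or CCGCCC, its reverse complement) and the E-box CACGTG in capitals. The Slc1a6 sequence lies at chr7:11521008-11521257 on the minus strand, that of Slc1a3 at chr2:59557809-59558058 on the minus strand and that of Glud1 at chr16:9646319-9646568 on the plus strand. RefSeq lists 3 starts for Slc1a3, of which the most upstream is shown.
Slc1a6: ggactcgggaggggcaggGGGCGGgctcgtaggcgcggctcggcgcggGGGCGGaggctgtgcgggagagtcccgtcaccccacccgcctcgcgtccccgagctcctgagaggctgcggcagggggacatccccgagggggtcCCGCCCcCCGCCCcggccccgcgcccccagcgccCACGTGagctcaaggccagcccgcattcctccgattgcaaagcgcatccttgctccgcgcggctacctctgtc
Slc1a3: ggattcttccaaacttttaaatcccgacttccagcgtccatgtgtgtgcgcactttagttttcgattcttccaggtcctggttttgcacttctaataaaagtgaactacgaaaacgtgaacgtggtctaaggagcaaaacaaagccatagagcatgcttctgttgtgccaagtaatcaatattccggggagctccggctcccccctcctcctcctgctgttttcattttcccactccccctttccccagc
Glud1: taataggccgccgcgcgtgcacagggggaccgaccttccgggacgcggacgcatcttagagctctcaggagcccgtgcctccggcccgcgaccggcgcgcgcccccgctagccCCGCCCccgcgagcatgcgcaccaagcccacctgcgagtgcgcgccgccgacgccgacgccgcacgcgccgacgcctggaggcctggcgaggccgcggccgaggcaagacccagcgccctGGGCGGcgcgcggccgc

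Slc1a6 had 4 GC boxes in this window, which began 232 and 202 bases before the start on the strand shown and 107 and 100 bases before it on the opposite strand, and 1 E-box, which began 73 bases before it. Glud1 had 2 GC boxes, 137 bases before the start on the opposite strand and 17 on the strand shown, and no E-box. Neither motif was found in the Slc1a3 window, and neither CCAAT nor TATAAA was found in any of the 3. Of the 33469 windows of the same length in the table, 30.5% held GGGCGG, 5.59% CACGTG, 34% CCAAT and 12.9% TATAAA on either strand. G and C made up 76.4% of the Slc1a6 window, 48% of the Slc1a3 window and 78.8% of the Glud1 window, against a median of 51.2% over all windows. These are matches of letters only, and no binding was measured. Promoter entries were found for 4 of the 5 genes, all but Slc1a1.

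The first comparison asked which members differ between dCINs and MNs, the 2 identified neuron types of the motor network. Slc1a6 was 2.79-fold higher in dCINs than in MNs by probe set U89608_at, and this was the only one of the 10 probe sets to pass the test. The differences of the other 9 ranged between -0.34 and 0.38 on the log2 scale, and the smallest adjusted p among them was 0.72. By limma, 40 of the 1050 probe sets (3.81%) passed an adjusted p of 0.1, with 25 higher and 15 lower in dCINs. The median difference of the 10 probe sets was 0.05, against -0.03 over all probe sets.

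On the 7 dCIN arrays the Slc1a6 probe set U89608_at read 150.2, 225.2, 308.5, 281.7, 306.2, 138.4 and 338.6. On the 7 MN arrays it read 73.8, 81.8, 77.5, 111.7, 112.2, 82.1 and 65.9. Every dCIN array lay above every MN array, and the lowest dCIN value, 138.4, stood next to the highest MN value, 112.2. The MIX arrays gave 246.4, 169.8, 245.4, 210.8, 242.7, 156.4, 193.4 and 252.3, which lay inside the range of the dCINs and above all MNs.

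The mean signal of U89608_at was 250 ± 80.1 in dCINs (SD, n = 7) and 86.4 ± 18.3 in MNs (SD, n = 7), a log2 difference of 1.48 (SE 0.21, 95% confidence interval 1.03 to 1.93, limma adjusted p = 0.000775). The difference ranked 6 by p among all probe sets. In a two-sided exact permutation test of the 14 signals p was 0.000583, the smallest that 7 against 7 arrays can give. Of all probe sets, 17 (1.62%) had dCIN and MN values that did not overlap, and U89608_at was the only one among the 10. Leaving out any single array gave log2 differences between 1.40 and 1.61, each past the threshold.

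**Figure D1:**
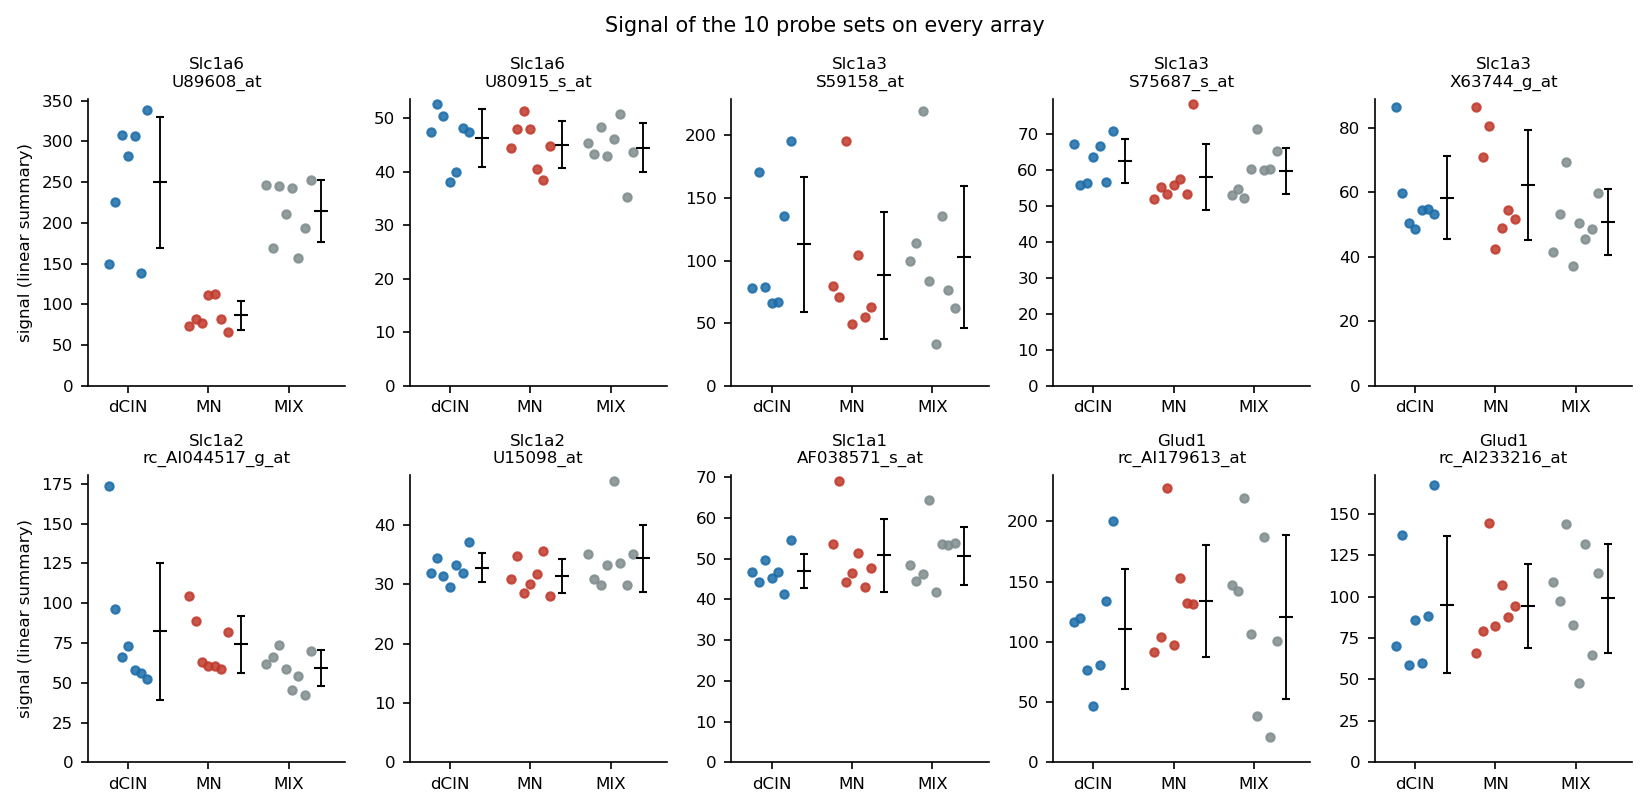
Signal (vertical axes, linear scale from 0) of the 10 probe sets on each array of the dCIN, MN and MIX groups, with the mean ± SD beside the points (n = 7, 7 and 8). The Slc1a6 probe set U89608_at is the only one in which MNs (65.9 to 112) separate from dCINs (138 to 339) and from MIX (156 to 252). The dCIN and MIX values overlap.

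The other Slc1a6 probe set, U80915_s_at, did not show this difference. Its signal ranged between 38.1 and 52.7 with a median of 47.4 in dCINs, between 38.5 and 51.3 with a median of 44.7 in MNs, and between 35.2 and 50.8 with a median of 44.6 in MIX. The groups overlapped over nearly the whole range. The dCIN-MN difference was 0.04 (95% confidence interval -0.17 to 0.25, adjusted p = 0.903), an interval that leaves out the difference of the first probe set. The gap between both differences was 1.45 on the log2 scale, with p = 0.000583 in a two-sided exact permutation test of the log2 ratio of the 2 probe sets over the 14 arrays. Over the 22 arrays the log2 signals of the 2 probe sets correlated with r = -0.05 and rho = -0.08 (permutation p adjusted over the 45 pairs of members, 1 and 0.936), and within dCINs, MNs and MIX r was -0.30, -0.14 and 0.03. The sources used here do not say which part of the transcript either one reads, so the Slc1a6 result rests on U89608_at alone.

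The comparisons with MIX asked how each neuron type stood against a random sample of the ventral horn. Slc1a6 by U89608_at was lower in MNs than in MIX, with mean signals of 86.4 ± 18.3 in MNs and 215 ± 37.8 in MIX (SD, n = 7 and 8), so that MIX stood 2.49-fold above MNs. The log2 difference was -1.32 (SE 0.19, 95% confidence interval -1.70 to -0.93, limma adjusted p = 0.000447), and by p it ranked 1 among the 1050 probe sets. No MN array reached the lowest MIX array, and p was 0.000155 in a two-sided exact permutation test, the smallest that 7 against 8 arrays can give. In this comparison 10 probe sets (0.952%) passed the threshold, 7 higher and 3 lower in MNs, and 2 (0.19%) had values that did not overlap. The second probe set, U80915_s_at, gave 0.02 (95% confidence interval -0.17 to 0.21, adjusted p = 0.925).

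Between dCINs and MIX the mean of U89608_at was 250 ± 80.1 in dCINs and 215 ± 37.8 in MIX, a log2 difference of 0.16 (SE 0.19, 95% confidence interval -0.22 to 0.55, limma adjusted p = 0.944). The values of these groups overlapped, and a difference of up to 0.55 on the log2 scale lay within the interval. None of the 10 probe sets passed the limma threshold here, and none had an unadjusted p below 0.05, a level reached by 75 probe sets (7.14%) of the array. Over the whole array 5 probe sets (0.476%) passed, all lower in dCINs, and 2 (0.19%) did not overlap. The differences of the 10 probe sets in dCINs against MIX ranged between -0.11 and 0.37, with a median of 0.07 against 0.02 over all probe sets, and those of the 9 that did not pass in MNs against MIX between -0.19 and 0.40, with a median over all 10 of -0.02 against 0.04. The order of the Slc1a6 signal was therefore dCIN, MIX, MN, of which the first pair did not differ beyond its spread. The comparisons share arrays, so the MN values stand behind both differences that passed.

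**Figure D2:**
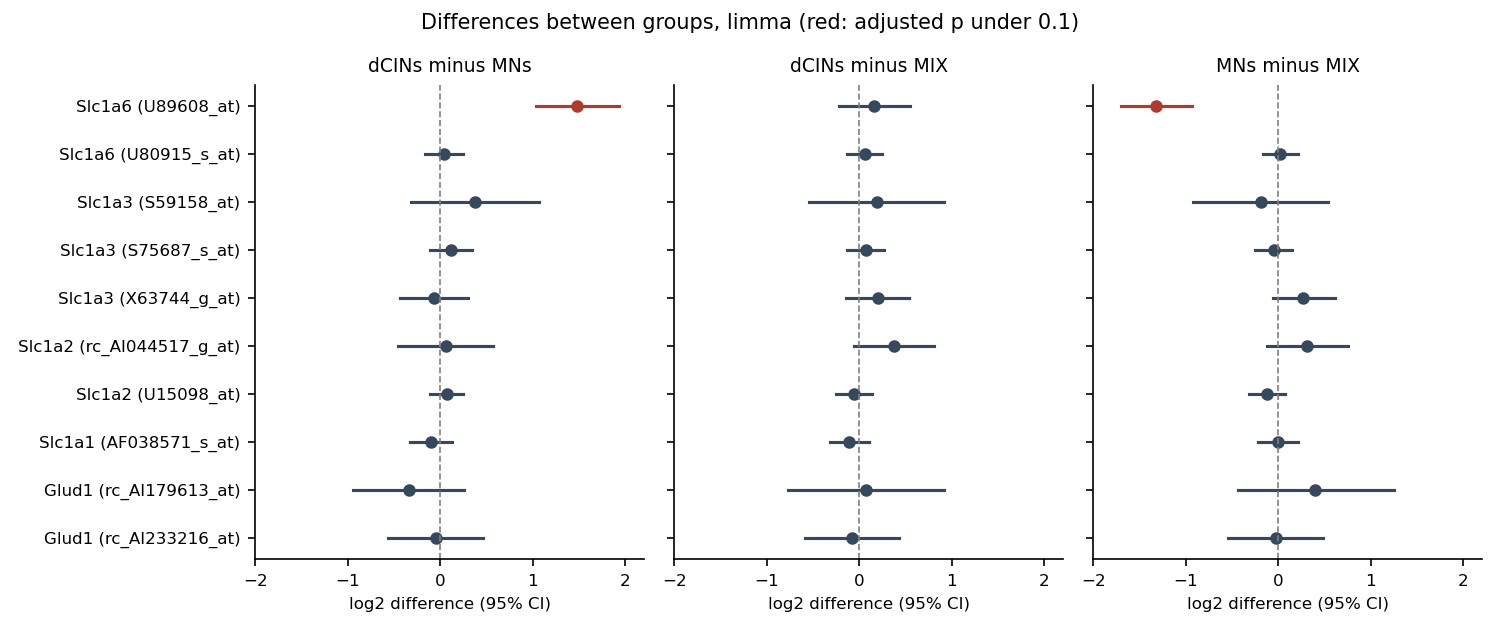
Log2 difference with its 95% confidence interval from limma (horizontal axes) for each of the 10 probe sets in dCINs minus MNs, dCINs minus MIX and MNs minus MIX, with red marking an adjusted p under 0.1. Slc1a6 (U89608_at) stands at 1.48, 0.16 and -1.32, while every other interval includes 0.

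Group membership accounted for 77.8% of the variance of log2 U89608_at over the 22 arrays, against a median of 10.4% over all probe sets and 15.2% at most in the other 9. Within groups its SD was 0.52 in dCINs, 0.29 in MNs and 0.27 in MIX on the log2 scale. The lowest dCIN arrays, numbers 1 and 6, read 150.2 and 138.4, and the remaining 5 read at least 225.2.

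**Figure D3:**
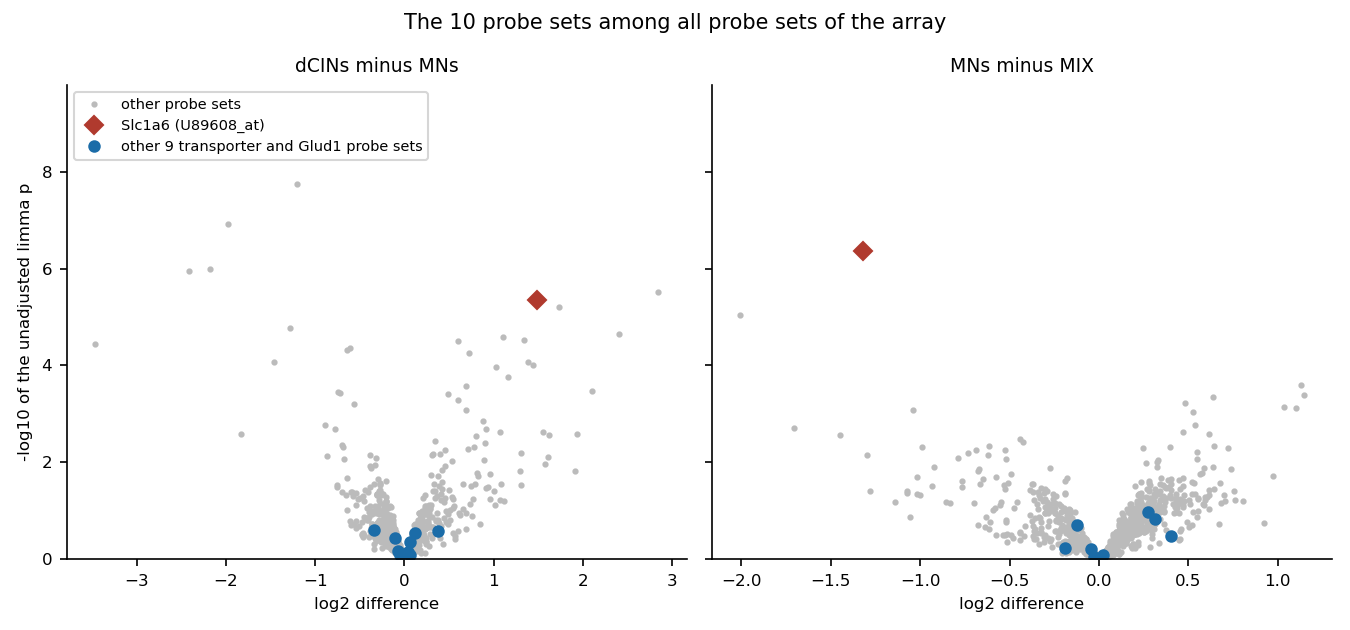
Log2 difference (horizontal axis) against -log10 of the unadjusted limma p (vertical axis) for the 1050 probe sets in dCINs minus MNs and MNs minus MIX, with Slc1a6 (U89608_at) as a red diamond and the other 9 transporter and Glud1 probe sets in blue. U89608_at has the smallest p of all in MNs minus MIX and stands at -1.32 there, and the blue points lie near the origin.

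The glial transporter Slc1a3 was read by 3 probe sets, none of which passed the test in any comparison. Probe set S59158_at ranged from 66.3 over a median of 78.9 up to 195.2 in dCINs, from 49.1 over 71.1 up to 195.2 in MNs, and from 33.1 over 91.5 up to 219.8 in MIX. In each group a few arrays stood high, namely dCIN arrays 2, 6 and 7, MN array 3, and MIX arrays 3 and 6. The dCIN-MN difference was 0.38 with a 95% confidence interval of -0.32 to 1.07 (adjusted p = 0.721), the widest interval among the transporter probe sets. Against MIX the difference was 0.19 (-0.54 to 0.91) for dCINs and -0.19 (-0.92 to 0.54) for MNs.

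The remaining Slc1a3 probe sets varied less. S75687_s_at averaged 62.4 ± 6.16 in dCINs, 57.9 ± 9.16 in MNs and 59.6 ± 6.40 in MIX, and its dCIN-MN difference was 0.12 (95% confidence interval -0.11 to 0.34, adjusted p = 0.723). X63744_g_at averaged 58.2 ± 12.9 in dCINs, 62.2 ± 17.0 in MNs and 50.7 ± 10.2 in MIX, with a dCIN-MN difference of -0.07 (-0.44 to 0.30, adjusted p = 0.894). No correlation between the 3 probe sets of Slc1a3 passed the test over the 22 arrays. S59158_at gave r = 0.24 and rho = 0.19 with X63744_g_at (permutation p adjusted over the 45 pairs of members, 0.645 and 0.797) and r = -0.35 and rho = -0.38 with S75687_s_at (0.51 and 0.532).

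Slc1a2, the other glial transporter, was read by 2 probe sets. The signal of rc_AI044517_g_at was 52.3 at the lowest, 65.9 at the median and 173.5 at the highest in dCINs, 58.9, 63.1 and 104.4 in MNs, and 42.5, 60.3 and 73.6 in MIX. The arrays numbered 1 and 2 were the highest in both labelled groups, at 173.5 and 96.6 in dCINs and at 104.4 and 88.8 in MNs, while MIX arrays 1 and 2 read 62.1 and 66.4. The dCIN-MN difference was 0.06 (95% confidence interval -0.46 to 0.57, adjusted p = 0.943), and with only the arrays numbered 3 and higher it was -0.09. Against MIX the differences were 0.37 (-0.06 to 0.81, adjusted p = 0.807) for dCINs and 0.31 (-0.12 to 0.75, adjusted p = 0.482) for MNs. These became 0.11 for dCINs and 0.20 for MNs with only the arrays numbered 3 and higher, the dCIN value was 0.17 without dCIN array 1, and the MN value was 0.02 with array weights and 0.15 without the MN samples of over 200 cells, which are MN arrays 1 and 2. U15098_at, the second probe set, stayed between 28.1 and 47.4 on all arrays, and its means were 32.8 ± 2.44 in dCINs, 31.4 ± 2.90 in MNs and 34.4 ± 5.66 in MIX. Its dCIN-MN difference was 0.07 (-0.11 to 0.25, adjusted p = 0.796).

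Slc1a1, the transporter known from neurons, did not pass the test between these neuron types. AF038571_s_at ranged from 41.4 over a median of 46.6 to 54.6 in dCINs, from 43 over 47.7 to 69 in MNs, and from 41.8 over 50.9 to 64.3 in MIX, so that all 3 groups overlapped. The dCIN-MN difference was -0.10 with a 95% confidence interval of -0.33 to 0.13 (adjusted p = 0.754). Against MIX it was -0.11 (-0.32 to 0.11) for dCINs and 0.00 (-0.22 to 0.21) for MNs. The median of AF038571_s_at over all arrays, 47.1, lay among the array medians (43.5 to 50.9). Without a detection call its level cannot be told from background, so equal expression is not shown.

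Glud1, glutamate dehydrogenase, varied widely within every group and did not pass in any comparison. Probe set rc_AI179613_at ranged from 47.2 over a median of 117 to 200.7 in dCINs, from 91.5 over 131 to 227.9 in MNs, and from 21.4 over 124 to 219.5 in MIX. The MIX arrays 5 and 7 read 38.8 and 21.4, below all others. The dCIN-MN difference was -0.34 (95% confidence interval -0.94 to 0.26, adjusted p = 0.72). The second probe set, rc_AI233216_at, ranged from 58.5 over 85.9 to 167.1 in dCINs, from 65.7 over 87.8 to 144.1 in MNs, and from 47.7 over 103 to 143.9 in MIX, and its dCIN-MN difference was -0.05 (-0.56 to 0.46, adjusted p = 0.953). Against MIX the 2 probe sets gave 0.07 (-0.77 to 0.91) and -0.08 (-0.59 to 0.43) for dCINs, and 0.40 (-0.44 to 1.25) and -0.03 (-0.54 to 0.48) for MNs.

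One of the 3 Slc1a3 probe sets, S59158_at, varied with Glud1 from array to array. Over the 22 arrays S59158_at and the Glud1 probe set rc_AI233216_at correlated with Pearson r = 0.79 and Spearman rho = 0.67 on the log2 scale. Over all 45 pairs of the 10 probe sets the permutation p adjusted by Benjamini-Hochberg was 0.00135 for r and 0.0135 for rho. Without the 2 arrays farthest from the median of S59158_at, r was 0.71. Within the groups r was 0.88 in dCINs, 0.75 in MNs and 0.83 in MIX. In a check added after the values were seen, the MN value rested on MN array 3, without which it was 0.23 over the other 6 arrays, while single arrays left out gave no r below 0.81 in dCINs or 0.64 in MIX.

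The same Slc1a3 probe set and the second Glud1 probe set, rc_AI179613_at, correlated with r = 0.65 and rho = 0.73 (permutation p adjusted over 45 pairs, 0.00922 and 0.00472), and r was 0.58 without the 2 farthest arrays. Within MNs this r was 0.80, and 0.35 without MN array 3. With the other Slc1a3 probe sets no such relation passed the test. With rc_AI233216_at and rc_AI179613_at, X63744_g_at gave r = 0.05 and 0.21 and S75687_s_at gave r = -0.18 and -0.26, which within MIX were -0.67 and -0.60. The permutation p of r adjusted over the 45 pairs was 0.645 or more for these 4 pairs. The 2 Glud1 probe sets correlated with each other with r = 0.75 and rho = 0.85 (adjusted permutation p, 0.00135 and 0.00045), so 3 of the 45 pairs passed 0.05 by both measures. One further pair, Slc1a3 X63744_g_at with Slc1a2 rc_AI044517_g_at, reached r = 0.66 and rho = 0.56 (adjusted permutation p, 0.00922 and 0.0784). Without the 2 farthest arrays its r fell to 0.41, and within dCINs, MNs and MIX r was 0.88, 0.61 and 0.43. How far that relation rests on those arrays was not tested. Correlated deviations are common on these arrays. Over all pairs of probe sets the r of deviations from the group means had a median of 0.04 and a 95th percentile of 0.64, against 0.82, 0.73 and 0.77 for the 3 pairs named first.

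**Figure D4:**
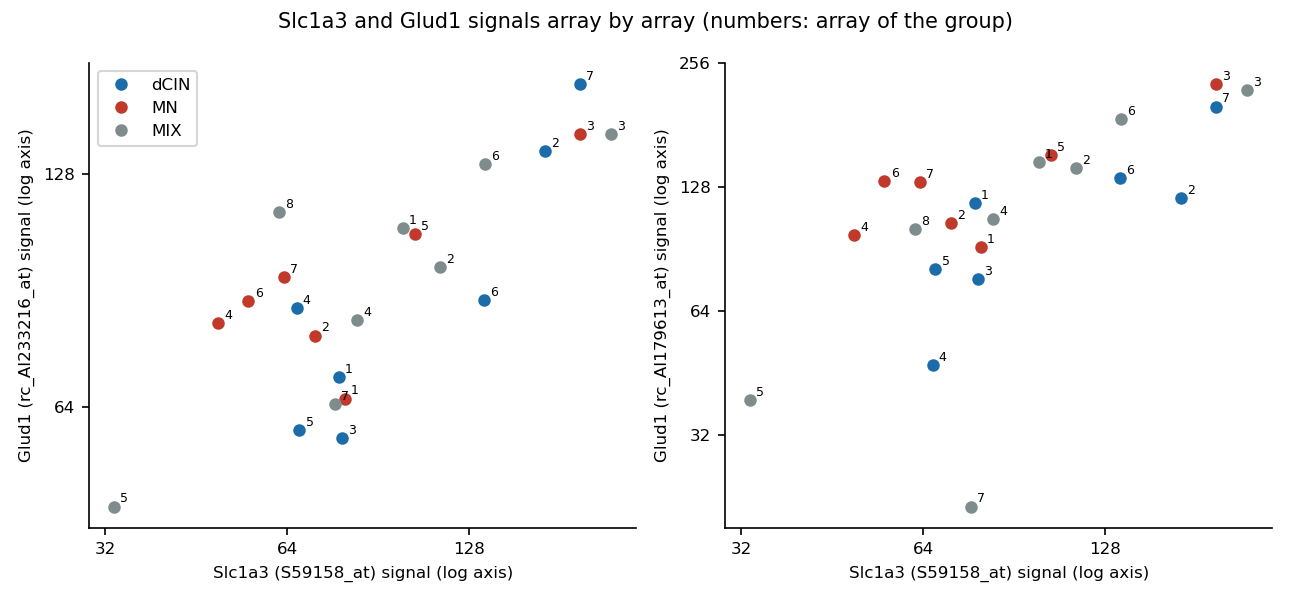
Signal of Slc1a3 (S59158_at, horizontal log axes) against that of the Glud1 probe sets rc_AI233216_at and rc_AI179613_at (vertical log axes) on the 22 arrays, coloured by group and numbered by array. The points of dCINs, MNs and MIX share 1 rising band (r = 0.79 and 0.65) and do not separate by group, and MN array 3 stands far above the other MN arrays.

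The genes with the pattern most like each member were taken as the 3 probe sets of other genes with the highest r over the 22 arrays. For Slc1a6 (U89608_at) these were the glutamate receptor Grm4 (0.77), the vesicular GABA and glycine transporter Slc32a1 (0.77) and the chemokine Cx3cl1 (0.70). Within groups the likeness was smaller, with r of deviations of 0.49, 0.11 and 0.21. For Slc1a3 S59158_at they were Glud1 (0.79), the prion protein gene Prnp (0.75) and the superoxide dismutase Sod1 (0.74), and for Glud1 rc_AI233216_at they were Slc1a3 (0.79), Sod1 (0.74) and Prnp (0.73). The second Glud1 probe set, rc_AI179613_at, was nearest to the kinase Pak1 (0.82), the calcium channel subunit Cacna2d1 (0.76) and the calmodulin Calm2 (0.76).

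For Slc1a2 rc_AI044517_g_at the nearest were the ATP receptor P2rx2 (0.89), the small heat shock protein Hspb2 (0.88) and the potassium channel Kcnj4 (0.87), and for U15098_at they were the receptor kinase Kit (0.75), the potassium channel Kcnq1 (0.71) and Tspo (0.69). The Slc1a3 probe set X63744_g_at was nearest to the sodium leak channel Nalcn (0.77), the sodium-calcium exchanger Slc8a2 (0.74) and the calcium channel Cacna1c (0.73), and S75687_s_at to the kinase Camk2a (0.80), the GABA receptor subunit Gabrr2 (0.74) and the calcium channel Cacna1d (0.71). Slc1a1 AF038571_s_at was nearest to Hspb1 (0.67), synaptophysin Syp (0.67) and Fgfr1 (0.61), and Slc1a6 U80915_s_at to the kinase Map2k1 (0.63), the ubiquitin ligase Pja2 (0.63) and Smarcb1 (0.58). These 22 arrays share their processing, and each r is a description of them.

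Among the receptors on which the cleared glutamate acts, 26 probe sets of 18 genes were followed. Between dCINs and MNs 2 were higher in dCINs, 24 did not pass and none was lower, with a median difference of -0.08, beside 3.81% called (25 higher and 15 lower) and a median of -0.03 over all probe sets. Grm4, a presynaptic metabotropic receptor, averaged 524 ± 116 in dCINs and 241 ± 72.2 in MNs (log2 difference 1.16, SE 0.23, adjusted p = 0.00859), and the kainate receptor subunit Grik1 66.4 ± 17.8 in dCINs and 30.4 ± 5.76 in MNs (1.10, SE 0.18, adjusted p = 0.0027). Gria2 by M38061_at, which is among the study's differentially expressed genes, fell just short (0.90, SE 0.27, limma adjusted p = 0.102). Its other probe set, M36419_s_at, gave -0.20 (limma adjusted p = 0.643). None of these 26 passed against MIX. The smallest p there belonged to Grik1 in dCINs against MIX (0.93, adjusted p = 0.43) and to the NMDA receptor subunit Grin2d in MNs against MIX (0.24, adjusted p = 0.237).

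Of the transporters of the inhibitory transmitters, 4 probe sets of 3 genes were followed. Of these 1 was higher in dCINs than in MNs and 3 did not pass. Slc32a1, which fills vesicles with GABA or glycine, averaged 514 ± 131 in dCINs and 125 ± 113 in MNs (log2 difference 2.40, SE 0.40, adjusted p = 0.00266). Slc32a1 was also the one to pass in MNs against MIX, at 125 ± 113 in MNs and 400 ± 128 in MIX (-2.01, SE 0.35, adjusted p = 0.00475). In dCINs against MIX none of the 4 passed, and the smallest p belonged to the second probe set of Slc32a1 (-0.19, adjusted p = 0.798).

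None of 6 probe sets of 4 subunits of the sodium-potassium pump, which drives glutamate uptake, passed in any comparison. The smallest p between dCINs and MNs belonged to Atp1b1, a beta subunit, at 5560 ± 764 in dCINs and 4470 ± 920 in MNs (0.33, SE 0.13, adjusted p = 0.365). Atp1b1 also had the smallest p in dCINs against MIX (0.30, adjusted p = 0.616), and Atp1b2 in MNs against MIX (0.39, adjusted p = 0.412). Of 21 further genes that carry, make or break down glutamate, only Abat, the GABA transaminase, had a named probe set, with means of 47.8 ± 12.4 in dCINs, 48.6 ± 6.83 in MNs and 51.5 ± 12.2 in MIX and no call. None of 3 genes known for binding the transporters had a named probe set here.

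**Figure D5:**
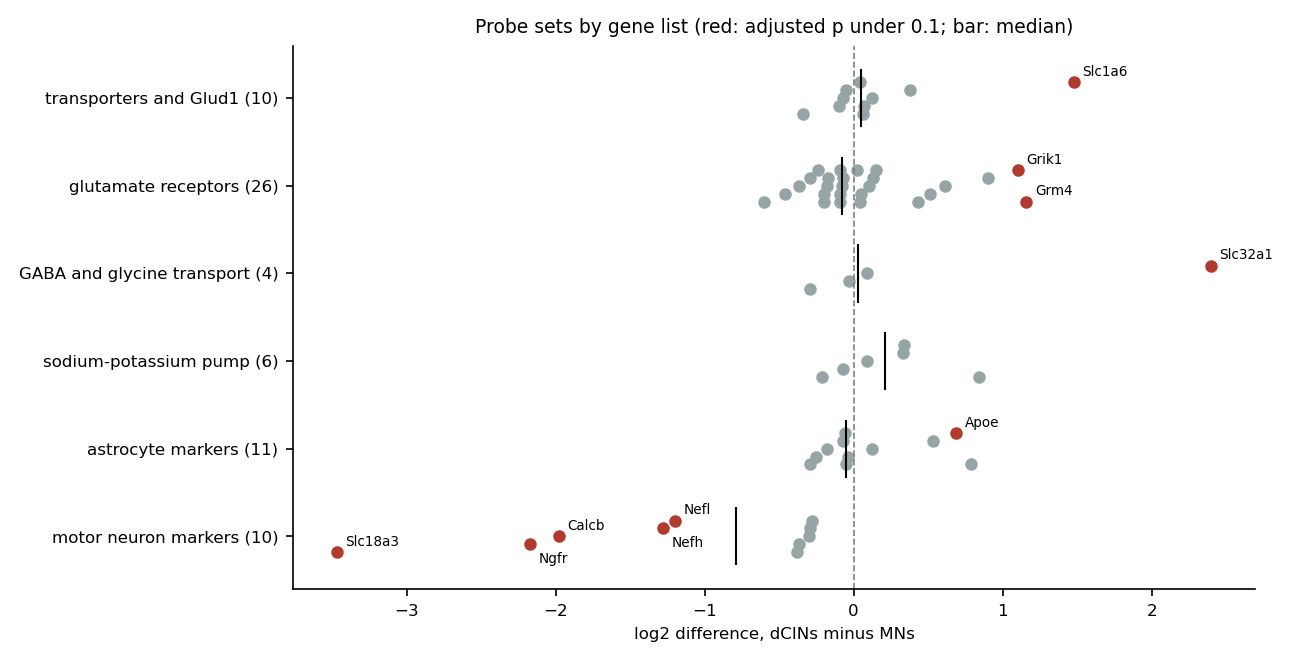
Log2 difference dCINs minus MNs (horizontal axis) of every probe set in 6 gene lists, with the number of probe sets in brackets, red points past an adjusted p of 0.1 and a bar at each median. Slc1a6 stands at 1.48, beside medians of 0.05 for the transporters and Glud1, -0.08 for glutamate receptors and -0.79 for motor neuron markers.

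Since Slc1a3 and Slc1a2 are known from astrocytes, markers of other cells were read on the same arrays. Of 11 probe sets of 8 astrocyte genes 1 passed between dCINs and MNs, that of the lipoprotein gene Apoe, at 6030 ± 869 in dCINs and 3770 ± 798 in MNs (0.69, SE 0.15, adjusted p = 0.0125). Their summed signal was 5917 to 9092 in dCINs, 4468 to 6741 in MNs and 3831 to 9861 in MIX. This sum is mainly that of Apoe, since its probe set X04979_at averaged 6030 of a mean sum of 8241 in dCINs, 3770 of 5631 in MNs and 4960 of 7274 in MIX, and it does not describe the list as a whole. Gfap, the intermediate filament of astrocytes, averaged 29.2, 30.1 and 32.6 by one probe set and 48.3, 53.9 and 52.4 by the other in dCINs, MNs and MIX. No detection call tells these low levels from background. The astrocyte marker S100b averaged 1100 ± 249 in dCINs, 771 ± 196 in MNs and 1200 ± 354 in MIX, and it had the smallest p of the list in MNs against MIX (-0.62, adjusted p = 0.237), as Atp1b2 did in dCINs against MIX (0.32, adjusted p = 0.798). The part of these cells in the Slc1a6 difference was not tested.

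Some of these markers moved with the members from array to array, given here as r of deviations from the group means over the 22 arrays, without a test. S100b followed the 2 Glud1 probe sets rc_AI233216_at (0.69) and rc_AI179613_at (0.67). Its r was 0.47 with Slc1a3 S59158_at and 0.35 with Slc1a6 U89608_at. The astrocyte list did not move as a whole. With rc_AI233216_at, rc_AI179613_at and S59158_at, 1 Gfap probe set gave -0.39, -0.54 and -0.47. The other Gfap probe set gave -0.14, -0.14 and -0.1, and the GABA transporter Slc6a11 -0.44, -0.27 and -0.27. Vim (0.47, 0.65 and 0.46), Atp1b2 and both Apoe probe sets had positive r with all of them. Slc1a2 rc_AI044517_g_at followed Slc6a11 (0.81), the pump subunit Atp1b2 (0.74) and 1 probe set of the oligodendrocyte precursor marker Pdgfra (0.89), while with S100b r was -0.10. The remaining Pdgfra probe sets gave 0.59, 0.35 and -0.32. Of the other oligodendrocyte markers Mog gave 0.72 and 0.32, Mag 0.03, 0.24 and 0.34, Mbp 0.22 and Cnp 0.08. Among the other astrocyte markers Gja1 gave -0.35, Gfap 0.07 and -0.35, Apoe -0.26 and 0.46, and Nes 0.62 and 0.16. Of the motor neuron markers Ngfr gave 0.63 and 0.38, Slc18a3 0.20 and 0.46 and Calcb 0.13, and the neurofilaments lay between -0.38 and -0.11. The genes nearest to rc_AI044517_g_at by pattern, P2rx2, Hspb2 and Kcnj4, are in none of these marker lists and gave 0.87, 0.91 and 0.89. Since rc_AI044517_g_at was highest on arrays 1 and 2 of dCINs and MNs, its r can hang on those arrays, and none was taken without them. The part of glial RNA in these members' spread was not tested.

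None of 11 probe sets of 5 oligodendrocyte genes passed in any comparison. The smallest p between dCINs and MNs was that of Mag (-0.31, adjusted p = 0.16), and Mbp, the myelin basic protein, averaged 37.0 in dCINs, 36.0 in MNs and 37.4 in MIX. Their summed signal was 738.6 to 1188 in dCINs, 768 to 1039 in MNs and 641 to 1490 in MIX. The one microglial probe set, Itgam, averaged 16.4 in dCINs, 17.3 in MNs and 20.8 in MIX without a call, and the one vessel probe set, Slc2a1, averaged 208 ± 56.8 in dCINs and 125 ± 51.6 in MNs (0.81, adjusted p = 0.26) beside 149 ± 64.4 in MIX.

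The markers of the labelled cells followed their labels, though not by every probe set. Slc18a3, the vesicular acetylcholine transporter, averaged 566 ± 457 in dCINs, 4040 ± 927 in MNs and 2560 ± 709 in MIX. Of 10 probe sets of 6 motor neuron genes 5 were lower in dCINs than in MNs, namely Slc18a3 (-3.47), Ngfr (-2.17), Calcb (-1.98), Nefh (-1.28) and Nefl (-1.20). The second probe sets of Slc18a3 (-0.3, limma adjusted p = 0.439), Ngfr (-0.38, 0.608), Nefh (-0.28, 0.367) and Nefl (-0.37, 0.223) did not pass. Nefm did not pass either (-0.29, limma adjusted p = 0.598). Against MIX, Slc18a3 (-2.80), Ngfr (-1.14) and Nefl (-0.66) were lower in dCINs, and Calcb (1.13) and Ngfr (1.03) were higher in MNs. Of 2 probe sets of GABA and glycine neuron markers, both of Slc32a1, 1 passed as given above. The lowest dCIN array read 55.8 for Slc18a3 and the highest 1130, so the dCIN arrays differed in this motor neuron marker, whose part in the spread of Slc1a6 was not tested. As deviations from the group means over the 22 arrays, U89608_at correlated with r = -0.47 and -0.29 with the 2 probe sets of Slc18a3. With Calcb r was -0.63, and with the 2 probe sets of Ngfr it was -0.31 and -0.32. The neurofilament markers did not share this, with r of -0.03 and 0.15 for Nefl, 0.06 and -0.11 for Nefh and -0.06 for Nefm. The r with Slc18a3, Calcb and Ngfr were thus negative, while those with the neurofilaments lay between -0.11 and 0.15. Over all pairs of probe sets the 95th percentile of such r was 0.64, a size that none of these r reached. These values are descriptions without a test.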

How the data were processed

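Amplified RNA of 7 dCIN, 7 MN and 8 MIX samples was hybridized to RN_U34 arrays. The intensity values deposited by the authors were made from the perfect match probes by subtraction of each array's minimum, quantile linear transformation, quantile projection normalization over the 22 arrays, Li-Wong summaries with the affy package (version not given in the sources used here) and subtraction of a universal minimum. They are linear and range from 1 to 8642. That normalization assumes a common signal distribution in all samples. The table holds the 1050 probe sets the authors kept after mapping to Ensembl. The platform annotation gave 961 of them a single symbol and 7 several genes, 2 were named from the text of the study, and 80 stayed unnamed. Some genes are not reported here, and the gene lists leave them out. Array signals carry no molecule counts, and precision is limited by the number of arrays. No detection calls were used, and probe-level intensities were not analysed here.

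Groups were taken from the sample titles. The log2 values were fitted with limma 3.58.1 in R 4.3.3, dCINs against MNs over their 14 arrays and both comparisons with MIX over 22 arrays with 3 group means, with Benjamini-Hochberg adjustment over the 1050 probe sets and calls at 0.1, the false discovery rate of the study. The limma fits, Cyber-T and the permutation tests were tested on simulated data. Single probe sets were tested by exact permutation of linear signals, and pairs of probe sets by 100000 permutations. Arrays came from separate animals.

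The members and all gene lists (glutamate handling, transporter binding proteins, sodium-potassium pump, glutamate receptors, GABA and glycine transport, and markers of astrocytes, oligodendrocytes, microglia, vessels, motor neurons and GABA and glycine neurons) were chosen with earlier results of these data known. The rule named every member probe set, the 3 most similar other genes of each, the called probe sets of each list or else that with the smallest p, and Gfap, Mbp and Slc18a3. Alternatives covered the offset, low values, normalization, variance prior, array weights, the replicate number, the arrays numbered 1 and 2, the number of cells, the threshold, the test and each array left out. Promoter sequences came from RefSeq (GRCr8), cut to the 250 bases before the start. Figures were drawn with matplotlib.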

Additional observations from a re-analysis of the deposited data

Results flagged for a closer look

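Within each group, the highest and lowest arrays of the 10 probe sets were set against their neighbours by Dixon's criterion at 95%. It marked 6 of the 30 groups tested, and in all 6 the array was the highest. The criterion assumes normal values and was run on linear signals, and the groups of different probe sets share arrays. The count is therefore not set against a rate expected by chance. For Slc1a3, S59158_at read 195 on MN array 3 (next highest MN array 104), S75687_s_at read 78.2 on MN array 7 (next 57.4) and X63744_g_at read 86.3 on dCIN array 1 (next 59.6). For Slc1a2, rc_AI044517_g_at read 174 on dCIN array 1 (next 96.6) and U15098_at read 47.4 on MIX array 5 (next 35.1). For Slc1a1, AF038571_s_at read 69 on MN array 2 (next 53.6). No array of the Slc1a6 and Glud1 probe sets was marked.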

How the results depend on the processing

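The Slc1a6 results held under every alternative that was run. For U89608_at the dCIN-MN difference lay between 1.21 and 1.58 and, with single arrays left out, between 1.40 and 1.61 (adjusted p 2.84e-05 to 0.036), and the MN-MIX difference between -1.35 and -1.06 and between -1.38 and -1.26 (adjusted p 9.44e-05 to 0.0108), always past the threshold. The dCIN-MIX difference, 0.11 to 0.30 (0.08 to 0.29 with single arrays left out), never passed. The replicate numbers were not used to pair the samples in the main fits. Arrays of the same number correlated in their deviations with -0.19 to 0.53 between dCINs and MNs, -0.23 to 0.31 between dCINs and MIX and -0.03 to 0.42 between MNs and MIX, and matched best in 2, 2 and 0 of 7 pairs. The r was over 0.1 in 5, 4 and 3 of the 7 pairs. Whether arrays of the same number shared their handling was not tested. With the replicate block the U89608_at differences were 1.48 between dCINs and MNs (adjusted p = 0.00203 by limma), 0.20 between dCINs and MIX and -1.28 between MNs and MIX (adjusted p = 0.00171), and no member call changed.

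Of 1005 values of the 10 probe sets 50 changed sign, none of them called. Between dCINs and MNs, X63744_g_at became 0.06 with array weights, 0.04 with cell number as a covariate and 0.08 without the MN samples of over 200 cells, AF038571_s_at 0.03 with only the arrays numbered 3 and higher and 0.01 without those MN samples, and rc_AI044517_g_at -0.09 with only those later arrays. Between dCINs and MIX, rc_AI179613_at became -0.01 with an offset of 32, -0.44 with weights and -0.07 with the number of cells, S59158_at 0.00 with weights and S75687_s_at -0.04 with the number of cells. Between MNs and MIX, U80915_s_at became -0.01 with array medians subtracted and -0.07 with weights, S75687_s_at 0.00 with weights, AF038571_s_at 0.01 with the block and 0.01 with the number of cells, and rc_AI233216_at 0.01 with the block, 0.16 with the later arrays and 0.11 without those MN samples.

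With single arrays left out, the dCIN-MN differences ranged from -0.17 to 0.01 for X63744_g_at, -0.14 to 0.15 for rc_AI044517_g_at and -0.20 to 0.06 for rc_AI233216_at. The dCIN-MIX differences ranged from -0.02 to 0.37 for S59158_at, -0.09 to 0.01 for U15098_at, -0.24 to 0.25 for rc_AI179613_at and -0.23 to 0.02 for rc_AI233216_at, and the MN-MIX differences from -0.03 to 0.06 for U80915_s_at, -0.08 to 0.05 for AF038571_s_at and -0.17 to 0.06 for rc_AI233216_at.

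Counts over the whole array moved more. Between dCINs and MNs 76 probe sets passed with array weights and 83 with the arrays numbered 1 and 2 as a covariate, in place of 40. Between dCINs and MIX 2 passed with quantile normalization, 2 with an intensity trend and robust prior, 68 with the number of cells and 1 at 0.05, in place of 5 (1 to 8 with single arrays left out). Between MNs and MIX 3 passed with quantile normalization, 33 with weights, 2 without the MN samples of over 200 cells and 2 at 0.05, in place of 10 (2 to 14 with single arrays left out). The causes were not tested. The signals near or below the array medians have no detection call here, so a low level cannot be told from background. Among them are U80915_s_at, U15098_at and the only Slc1a1 probe set, AF038571_s_at. The Slc1a3 probe sets X63744_g_at and S75687_s_at, with medians of 53.3 and 57, lay little above.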
